A study of Mus musculus with 12 samples.

Results

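The 8 genes described here were 6 members of the aldehyde dehydrogenase (ALDH) superfamily (*Aldh1a1*, *Aldh1a3*, *Aldh1a7*, *Aldh2*, *Aldh3a1* and *Aldh3a2*) and the pair of genes that make up the polyol pathway (*Akr1b3*, aldose reductase, and *Sord*, sorbitol dehydrogenase). They were taken by gene name from the 55487 gene identifiers of a table of RNA-seq counts from mouse lenses at P7 (postnatal day 7). The 12 libraries came from 4 genotypes on the B6J background, with 3 libraries a genotype: wild-type, *Trpm3*-M/M, *Trpm3*-I/M and *Trpm3*-KO (M/M, I/M and KO below). *Trpm3* encodes a cation channel, and the study asked how a channel mutation and the loss of the channel affect gene expression in the lens. *Trpm3*-M/M mice were homozygous, and *Trpm3*-I/M mice heterozygous, for an isoleucine-to-methionine substitution in TRPM3 made by CRISPR/Cas9 editing, and *Trpm3*-KO mice were homozygous for an allele made by homologous recombination, in which a reporter cassette interrupts the gene in every cell. Lenses of both sexes, 4 male and 4 female, were pooled for each library, and the labels do not tie replicate numbers to litters or days, so that p-values measure the spread between pools.

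Aldehyde dehydrogenases oxidise reactive aldehydes to acids, and the lens, which is exposed to light and oxidants for life, depends on them to clear the aldehydes left by lipid peroxidation. ALDH1A1 and ALDH1A3 also oxidise retinaldehyde to retinoic acid, ALDH2 works in mitochondria on acetaldehyde and lipid aldehydes, and ALDH3A1 is best known as an abundant protein of the cornea. In the polyol pathway, aldose reductase reduces glucose to sorbitol and sorbitol dehydrogenase oxidises sorbitol to fructose, and sorbitol trapped in lens cells is the classical cause of sugar cataract.

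Library totals ran from 56162182 to 82090262 estimated counts. Crystallin genes took 61.0 to 63.9% of them in wild-type, 59.9 to 62.2% in KO, 57.1 to 58.2% in I/M and 49.4 to 51.3% in M/M libraries. Values are given as CPM (counts scaled to a common library total) after TMM scaling, which evens out most genes between libraries, and log2 fold changes come from 1 edgeR fit over all 12 libraries with p-values adjusted over all genes tested. *Trpm3* itself (chr19:22139046-22995410, plus strand) was 2.82-fold lower in KO lenses (89.9, 99.7 and 96.3 CPM against 269.9, 251 and 285 CPM in wild-type, edgeR adjusted p = 3.36e-09). It was 1.44-fold higher in I/M and 1.77-fold higher in M/M lenses (edgeR adjusted p = 1.62e-05 and 5.84e-08). The 10 lens fiber markers summed to 30482 to 32734 CPM in wild-type and 30333 to 31649 CPM in KO lenses (0 called). They summed to 25542 to 27406 CPM in I/M (8 of 10 lower) and 16076 to 18548 CPM in M/M lenses (10 of 10 lower). The 8 lens epithelium markers summed to 465 to 504 CPM in wild-type, 418 to 437 CPM in KO, 420 to 451 CPM in I/M and 327 to 352 CPM in M/M lenses. Of 7 tested, 2 were lower and 0 higher in KO, and 4 were lower and 2 higher in each of I/M and M/M. The fiber and epithelium shifts accompany every value of I/M and M/M lenses below, and the epithelium shift every value of KO lenses. Their part in the result was not tested. I/M replicate 3 held 0.0721 CPM of *Xist*, against 45.8 to 305 CPM in the other 11 libraries, and more of 4 Y-linked genes than any of them, which goes against its label as a mixed pool. Results that change without this library are given with and without it.

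All 8 genes were detected in every library, but at very different levels. Per kilobase of exon, wild-type lenses held 91.3 ± 3.79 CPM of *Aldh1a1* (SD, n = 3, also below), 33.0 ± 8.59 of *Aldh1a7*, 13.0 ± 0.599 of *Sord*, 3.56 ± 0.0997 of *Aldh2*, 3.14 ± 0.253 of *Akr1b3*, 1.53 ± 0.119 of *Aldh3a2*, 0.244 ± 0.0214 of *Aldh1a3* and 0.156 ± 0.0465 of *Aldh3a1*. No neighbours in this order overlapped between libraries, although *Akr1b3* and *Aldh2* changed places when lengths were taken from the longest transcript. In KO lenses the order was kept, with *Aldh1a3* and *Aldh3a1* overlapping at its lower end. In M/M lenses *Aldh3a1* stood at 2.22 ± 0.405 CPM per kilobase, above *Akr1b3* at 1.62 ± 0.0802, *Aldh3a2* at 1.46 ± 0.0432 and *Aldh1a3* at 0.873 ± 0.0609, where no neighbours overlapped. With the longest transcript it stood at the 7th place instead of the 5th. Of all counts on the 21 aldehyde dehydrogenase genes in the table, *Aldh1a1* alone took 53.7 to 56.0% in wild-type lenses and 49.5 to 51.4% in M/M lenses.

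**Figure D1:**
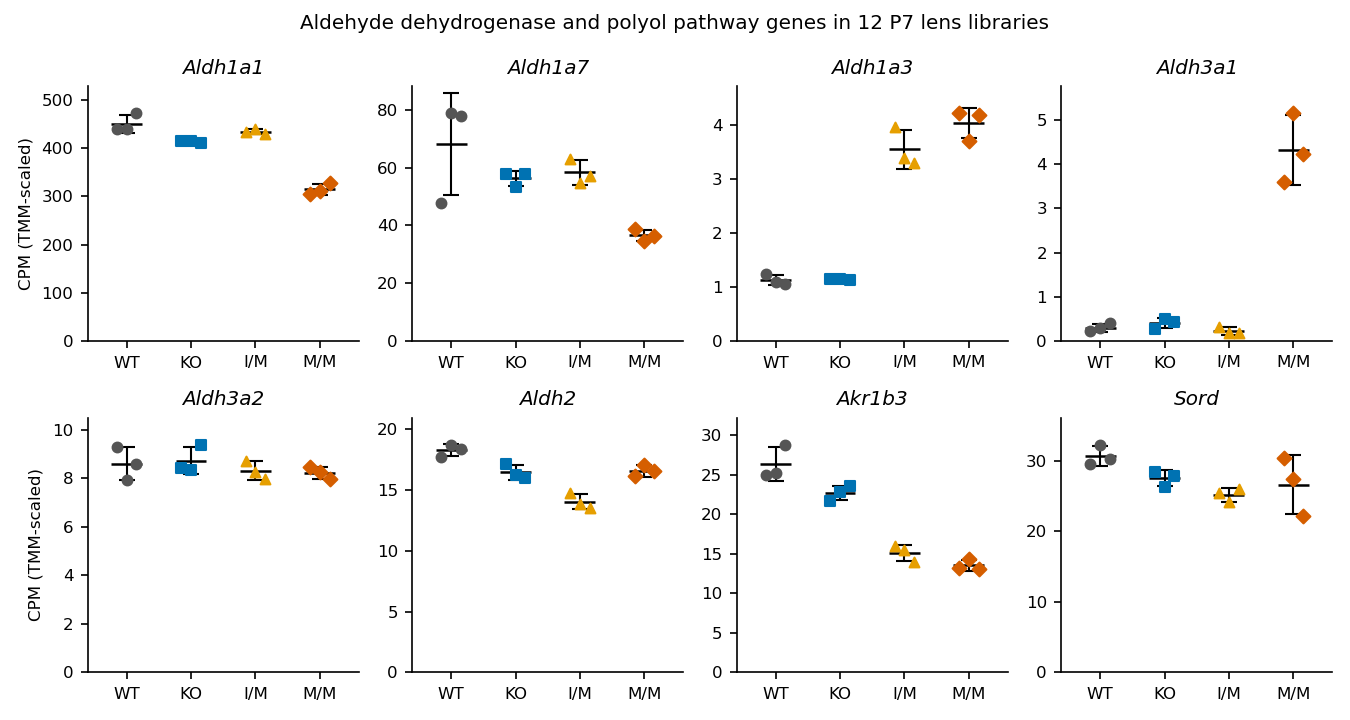
Level of each of the 8 genes (vertical axis, CPM after TMM scaling, from 0) in the 3 libraries of each genotype (WT, wild-type), with the mean and SD in black. *Aldh3a1* stood at 3.59 to 5.15 CPM in M/M libraries and below 0.5 CPM in the other 9, and *Akr1b3* was lower in all I/M and M/M libraries than in any wild-type library.

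Of the 8 genes, 6 passed the filter of the study (CPM of at least 5 in at least 3 libraries, 8984 genes). *Aldh1a3* and *Aldh3a1* did not, and their fold changes come from a fit with a lower filter (CPM of at least 1 in at least 3 libraries, 12638 genes). *Aldh3a1* passed the lower filter only through the M/M libraries, where it is high, so that its difference was in part a condition of its being tested. In KO against wild-type lenses none of the 6 genes passed an adjusted p of 0.05 in edgeR (0 of 6, where 4.36% of all genes tested passed, and 0.568% also had a fold change (FC) of at least 2). The unadjusted p was under 0.05 for 3 of them, *Akr1b3*, *Aldh2* and *Aldh1a1*, all lower in KO lenses, and DESeq2 called 1, *Aldh1a1* (DESeq2 adjusted p = 0.0445). None of the 8 passed with the lower filter either, where 4.06% of genes did.

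In I/M lenses 3 of the 6 genes (*Akr1b3*, *Aldh2* and *Sord*) were lower than in wild-type and none was higher (32.6% of all genes tested passed). Of the 6, 4 (*Akr1b3*, *Aldh1a1*, *Aldh1a7* and *Aldh2*) were lower in M/M lenses and none was higher, near the 62.7% of all genes that passed. The median log2 fold change of the 6 was -0.25 in I/M and -0.36 in M/M lenses, where the median of all genes tested lay at -0.0009 and -0.0042. None of the 6 reached a 2-fold change in edgeR or in DESeq2 (3.33% of all genes did in I/M and 8.95% in M/M lenses). With the lower filter, 4 of 8 genes passed in I/M lenses (1 higher, 29.4% of all genes) and 7 of 8 in M/M lenses (2 higher, 60.7% of all genes). *Aldh1a3* and *Aldh3a1* were the genes that rose, and *Sord* was called lower in M/M lenses with this filter. The comparisons with wild-type share its 3 libraries.

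**Figure D2:**
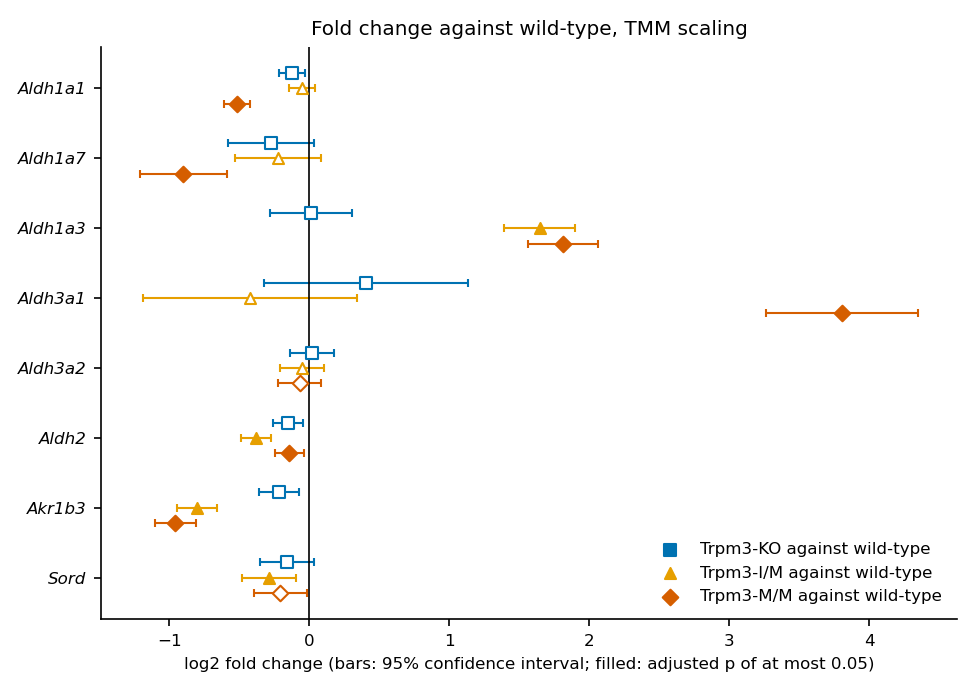
Log2 fold change of each gene against wild-type (horizontal axis) in KO (squares), I/M (triangles) and M/M lenses (diamonds), with 95% confidence intervals, where filled symbols passed an adjusted p of 0.05. *Aldh1a3* and *Aldh3a1* come from the fit with the lower filter. *Aldh3a1* lay at 3.81 in M/M lenses and at -0.42 in I/M lenses, while *Aldh1a3* lay at 1.65 and 1.81 in I/M and M/M lenses.

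Between the homozygous and heterozygous mutants, 3 of the 6 genes passed in M/M against I/M lenses (51.3% of all genes did). *Aldh1a1* and *Aldh1a7* were lower in M/M, and *Aldh2* was higher. With the lower filter 5 of 8 passed (48.8% of all genes), *Aldh3a1* and *Aldh2* higher and *Akr1b3*, *Aldh1a1* and *Aldh1a7* lower. Against KO lenses, 3 of the 6 were lower in M/M (*Akr1b3*, *Aldh1a1* and *Aldh1a7*, 64.8% of all genes passed) and 2 were lower in I/M (*Akr1b3* and *Aldh2*, 36.0% of all genes passed).

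*Aldh1a1* and *Aldh1a7* are neighbours. *Aldh1a1* (ENSMUSG00000053279) lies at chr19:20492715-20643465 on the plus strand of GRCm38 and *Aldh1a7* (ENSMUSG00000024747), a rodent paralog, at chr19:20692953-20727562 on the minus strand, 49.5 kb away with no protein-coding gene between them. Both lie on the chromosome of *Trpm3*, with *Aldh1a1* 1.5 Mb from it and 7 protein-coding genes between. Over 1503 coding bases the paralogs were identical at 1377, or 91.62%. Exon 9 is shown as the longest coding exon compared between the pair, and it holds the codon of the catalytic cysteine (codon 303, coding bases 907 to 909). It was 84.32% identical, whereas exons 3 and 8 were 98.58 and 99.03% identical, so that reads there are harder to tell apart. The exon lies at chr19:20630666-20630850 on the plus strand in *Aldh1a1* and at chr19:20708150-20708334 on the minus strand in *Aldh1a7*, and the 29 of 185 bases that differ are in capitals (5′ to 3′ on the coding strand).
Aldh1a1 exon 9: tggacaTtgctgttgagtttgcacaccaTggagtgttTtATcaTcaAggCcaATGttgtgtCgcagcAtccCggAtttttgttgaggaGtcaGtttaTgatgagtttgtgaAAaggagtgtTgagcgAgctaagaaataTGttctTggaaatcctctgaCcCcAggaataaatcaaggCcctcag
Aldh1a7 exon 9: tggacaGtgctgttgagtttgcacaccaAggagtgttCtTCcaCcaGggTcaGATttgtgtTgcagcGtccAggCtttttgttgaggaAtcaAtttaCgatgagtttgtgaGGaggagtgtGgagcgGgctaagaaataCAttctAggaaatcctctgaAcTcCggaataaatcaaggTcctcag

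The sequence just before the RefSeq start of each gene was closer still. Over the 100 bases up to each start, read from the RefSeq promoter table of GRCm38.p6, 94 were identical, and the 6 that differ are in capitals. They are shown because the genes moved in the same direction. The stretch lies at chr19:20601868-20601967 on the plus strand for *Aldh1a1* and at chr19:20727557-20727656 on the minus strand for *Aldh1a7*. The RefSeq start of *Aldh1a1* lies inside the longer locus that GENCODE gives it.
Aldh1a1 promoter: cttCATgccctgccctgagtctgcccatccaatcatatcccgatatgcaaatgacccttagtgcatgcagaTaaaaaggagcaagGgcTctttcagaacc
Aldh1a7 promoter: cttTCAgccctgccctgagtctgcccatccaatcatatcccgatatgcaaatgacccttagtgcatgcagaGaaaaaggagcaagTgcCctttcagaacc

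*Aldh1a1*, the main cytosolic retinaldehyde and lipid aldehyde dehydrogenase of the lens, was lower in M/M lenses than in any other genotype. Wild-type libraries held 441, 439 and 472 CPM, KO libraries 416, 415 and 410.2 CPM and I/M libraries 433, 439.8 and 430.1 CPM. M/M libraries held 305, 312 and 327 CPM. All 3 M/M libraries thus lay below all 9 others, while I/M and wild-type libraries overlapped. KO libraries lay below wild-type without overlap (log2 fold change -0.12, edgeR adjusted p = 0.136). The log2 fold change was -0.52 ± 0.043 (SE) in M/M against wild-type, a 1.43-fold fall (edgeR adjusted p = 2.29e-07), and -0.46 ± 0.043 against I/M (edgeR adjusted p = 1.60e-06). In I/M against wild-type it was -0.05, with a 95% confidence interval from -0.15 to 0.04 (edgeR adjusted p = 0.376). With library size as the only scaling, the M/M value against wild-type was -0.01 (edgeR adjusted p = 0.896), where the median of all genes tested shifted to 0.50.

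*Aldh1a7* followed in M/M lenses. Wild-type libraries held 47.6, 78.8 and 77.9 CPM, KO libraries 57.9, 53.2 and 57.7 CPM and I/M libraries 63.1, 54.8 and 57.2 CPM. M/M libraries held 38.6, 34.7 and 36.3 CPM. Every M/M library lay below every other library, and wild-type replicate 1 stood far below the other wild-type libraries. M/M against wild-type gave a log2 fold change of -0.90 ± 0.14, a 1.86-fold fall (edgeR adjusted p = 1.05e-04), and against I/M it was -0.68 ± 0.14 (edgeR adjusted p = 0.00147). The other comparisons changed without wild-type replicate 1. With it, KO and I/M lenses were at -0.27 and -0.22 against wild-type (edgeR adjusted p = 0.341 and 0.257), and without it at -0.48 and -0.43 (edgeR adjusted p = 0.00153 and 5.12e-04), with M/M at -1.10. With no filter beyond 1 count they also passed, at -0.28 and -0.20 (edgeR adjusted p = 6.56e-04 and 0.0155).

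The balance within the pair can be read from counts of the same library, free of scaling. *Aldh1a7* took 9.76, 15.2 and 14.2% of the summed counts of the pair in wild-type libraries, 11.4 to 12.3% in KO, 11.1 to 12.7% in I/M and 10.0 to 11.2% in M/M libraries. The low share in wild-type replicate 1 overlapped those of the other genotypes. The mean share in M/M was 2.64 percentage points below wild-type (two-sided exact permutation test, p = 0.4, adjusted p = 0.533 over 16 such tests of ratios). Of all stretches of 50 bases in the transcripts of *Aldh1a7*, 7.49% also occurred in *Aldh1a1*, and of those of 100 bases 0.051%.

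The genes tested that lie between the pair and *Trpm3* did not move together. *Zfand5* was at -0.46 in M/M against wild-type, while *Cemip2*, a hyaluronidase of the cell surface, was at 1.83 (edgeR adjusted p = 1.23e-04 and 1.28e-11). *Anxa1*, on the far side of *Aldh1a1*, was at 0.05 (edgeR adjusted p = 0.738).

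*Aldh1a3*, the paralog that makes retinoic acid in the developing eye and nose, rose in both mutants. It is listed as ENSMUSG00000015134 at chr7:66390890-66427517, minus strand. Wild-type libraries held 63, 52 and 53 counts (1.24, 1.09 and 1.05 CPM), and KO libraries 61, 63 and 60 counts (1.14, 1.14 and 1.13 CPM). I/M libraries held 294, 278 and 229 counts (3.96, 3.38 and 3.30 CPM), and M/M libraries 337, 342 and 370 counts (4.21, 3.71 and 4.18 CPM). The mutant libraries all lay above those of wild-type and KO, and the 2 mutant genotypes overlapped. The log2 fold change was 1.65 ± 0.12 in I/M (3.13-fold, edgeR adjusted p = 1.99e-07) and 1.81 ± 0.12 in M/M (3.51-fold, edgeR adjusted p = 1.47e-08). It was 0.01 in KO, with a 95% confidence interval from -0.28 to 0.30 (edgeR adjusted p = 0.986), and between the mutants 0.16, from -0.05 to 0.38 (edgeR adjusted p = 0.183). Leaving out any 1 library kept both rises.

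*Aldh3a1* (ENSMUSG00000019102, chr11:61207537-61218421, plus strand) was low in all but the homozygous mutant. It had 11, 14 and 20 counts in wild-type libraries, 15, 27 and 23 in KO and 24, 15 and 12 in I/M. M/M libraries had 287, 475 and 374 counts, or 3.59, 5.15 and 4.22 CPM. No M/M library came near the others, and the other genotypes overlapped. Its log2 fold change in M/M was 3.81 ± 0.25 against wild-type, or 14.0-fold (edgeR adjusted p = 1.93e-08), 4.23 ± 0.25 against I/M (edgeR adjusted p = 1.94e-08) and 3.40 ± 0.24 against KO (edgeR adjusted p = 2.87e-08). In I/M against wild-type it was -0.42, with a 95% confidence interval from -1.18 to 0.34 (edgeR adjusted p = 0.412).

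Markers of other tissues were read beside these rises. Of the 8 cornea markers, *Kera* was at 0 in every library, *Krt12*, which defines the corneal epithelium, reached at most 0.0113 CPM, and *Clu*, which the lens also expresses, made up nearly all of the summed level. The other keratins of this cornea list, *Krt5*, *Krt14* and *Krt15*, which surface epithelia express, were higher in some M/M libraries. *Krt5* was at 0.0125, 1.19 and 0.0677 CPM in M/M replicates 1, 2 and 3, *Krt14* at 0.0625, 0.380 and 0.135 CPM and *Krt15* at 0.175, 1.85 and 0.609 CPM. In wild-type libraries *Krt5* reached at most 0.0396 CPM and *Krt15* 0.337 CPM, and *Krt14* was at 0 in the 9 other libraries. I/M libraries held 0.0486 to 0.115 CPM of *Krt5*. Among M/M libraries, *Krt5*, *Krt14*, *Krt15* and *Aldh3a1* were each highest in replicate 2 and lowest in replicate 1. In M/M replicate 1 *Krt5* and *Krt15* lay below every wild-type library, and *Krt14* had 5 counts. The 8 vascular endothelium markers summed to 5.86 to 8.27 CPM in wild-type, 6.09 to 6.85 in KO, 18.3 to 26.4 in I/M and 55.7 to 66.2 CPM in M/M libraries, and 6 of 6 tested were higher in each mutant. The 7 markers of pericytes and fibroblasts summed to 73.5 to 89.5 CPM in wild-type, 97.0 to 123 in I/M and 262 to 395 CPM in M/M libraries (3 and 5 of 5 tested higher), and the 7 macrophage markers to at most 0.531, 0.948 and 19.7 CPM. The vascular, pericyte and macrophage lists rose in mutant lenses, as did *Aldh1a3* or *Aldh3a1*, and the keratins rose in some M/M libraries. Their part in the result was not tested. In these pools of whole lenses, fewer cells of a type and less RNA per cell cannot be told apart.

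*Aldh3a2*, the fatty aldehyde dehydrogenase of the endoplasmic reticulum, lies 4995 bases from *Aldh3a1* (ENSMUSG00000010025, chr11:61223417-61267464, minus strand), and its coding sequence was identical to that of *Aldh3a1* at 67.23% of aligned bases. It had 9.28, 7.94 and 8.58 CPM in wild-type libraries, 8.43, 8.36 and 9.37 in KO, 8.72, 8.24 and 7.96 in I/M and 8.44, 8.24 and 7.96 CPM in M/M libraries. All 4 genotypes overlapped. The log2 fold change against wild-type was 0.02, -0.05 and -0.07 in KO, I/M and M/M lenses, and the 95% confidence interval in M/M ran from -0.22 to 0.09 (edgeR adjusted p = 0.920, 0.629 and 0.423). With library size as the only scaling it was 0.44 in M/M lenses, where the median of all genes tested was 0.50. Per 100 counts of *Aldh3a2* there were 2.33 to 4.62 counts of *Aldh3a1* in wild-type, 3.33 to 5.84 in KO, 2.17 to 3.71 in I/M and 42.5 to 62.5 in M/M libraries, with no overlap between M/M and the rest. No stretch of 50 bases was shared between the neighbours or with any other gene.

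*Aldh2*, the mitochondrial enzyme (ENSMUSG00000029455, chr5:121566027-121593824, minus strand), was lowest in the heterozygous mutant. The gene *Gm42879*, which overlaps it, had 1 to 7 counts a library. Wild-type libraries held 17.7, 18.7 and 18.4 CPM, KO libraries 17.2, 16.2 and 16.0 CPM, I/M libraries 14.7, 13.8 and 13.5 CPM and M/M libraries 16.1, 17.1 and 16.5 CPM. All I/M libraries lay below all others, and KO and M/M libraries overlapped just under wild-type. A log2 fold change of -0.38 ± 0.049 was found in I/M against wild-type (1.30-fold lower, edgeR adjusted p = 5.82e-05) and 0.24 ± 0.048 in M/M against I/M (edgeR adjusted p = 0.00103). The small fall in M/M against wild-type (-0.14 ± 0.048, edgeR adjusted p = 0.0220) was not stable. It lost its call with no filter beyond 1 count (-0.15, edgeR adjusted p = 0.0809) and without wild-type replicate 2 (-0.13, edgeR adjusted p = 0.0700), M/M replicate 1 (-0.10, edgeR adjusted p = 0.142) or M/M replicate 3 (-0.12, edgeR adjusted p = 0.0903), and turned to 0.37 with library size as the only scaling.

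*Akr1b3*, the reductase that makes sorbitol, fell in both mutants. It is listed as ENSMUSG00000001642 at chr6:34302434-34317478, minus strand. Wild-type libraries held 25.0, 25.2 and 28.8 CPM and KO libraries 21.7, 22.8 and 23.5 CPM. I/M libraries held 15.9, 15.4 and 13.9 CPM and M/M libraries 13.2, 14.3 and 13.1 CPM. Both mutants lay below wild-type and KO in all libraries and overlapped each other, and KO lay just below wild-type without overlap. Against wild-type the log2 fold change was -0.80 ± 0.067 in I/M (1.74-fold lower, edgeR adjusted p = 1.24e-06) and -0.96 ± 0.067 in M/M lenses (1.94-fold lower, edgeR adjusted p = 4.97e-08). In KO it was -0.22, with a 95% confidence interval from -0.36 to -0.07 (edgeR adjusted p = 0.0987). Both falls remained when library size was the only scaling, at -0.60 and -0.45.

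The difference of *Akr1b3* between the mutants was small. In M/M against I/M it was -0.16 ± 0.068 (edgeR adjusted p = 0.0692), and it passed without I/M replicate 3 (-0.21, edgeR adjusted p = 0.0262), the library in doubt, or without wild-type replicate 3 (-0.15, edgeR adjusted p = 0.0405). With library size as the only scaling it was 0.15. Of the 50-base stretches of *Akr1b3*, 13.6% also occurred elsewhere, mostly in *Gm6644* and *Gm6736*, processed pseudogenes, and in *Gm38056*. *Gm6644* had 92 to 155 counts a library and *Gm38056* 35 to 91, where *Akr1b3* had 966 to 1451. An antisense gene that overlaps *Akr1b3*, *Gm14546*, had 68 to 135 counts, and the library kit does not keep strand, so that reads of the overlap cannot be told apart.

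*Sord*, which turns sorbitol into fructose (ENSMUSG00000027227, chr2:122234749-122265340, plus strand), changed less. Wild-type libraries held 29.5, 32.2 and 30.3 CPM, KO libraries 28.4, 26.3 and 27.8 CPM and I/M libraries 25.4, 24.1 and 26.0 CPM. M/M libraries were spread from 22.1 to 30.3 CPM, with 27.3 CPM between. I/M and KO libraries each lay below wild-type without overlap, and M/M libraries overlapped every genotype. In KO the log2 fold change was -0.16 (edgeR adjusted p = 0.392). It was -0.29 ± 0.089 in I/M lenses (edgeR adjusted p = 0.0256). In M/M lenses it was -0.21 ± 0.088, with a 95% confidence interval from -0.40 to -0.02 (edgeR adjusted p = 0.0568, or 0.0374 with the lower filter).

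Single libraries and the processing moved these calls of *Sord*. The fall in I/M lenses lost its call with library size as the only scaling (-0.08, edgeR adjusted p = 0.389) and without wild-type replicate 2 (-0.25, edgeR adjusted p = 0.0829), I/M replicate 1 (-0.29, edgeR adjusted p = 0.0529) or I/M replicate 2 (-0.26, edgeR adjusted p = 0.0832). Without M/M replicate 1, the highest of its group, the value in M/M was -0.29 and passed (edgeR adjusted p = 0.00711). The M/M value also passed with upper-quartile scaling (-0.22, edgeR adjusted p = 0.0404) and with no filter beyond 1 count (-0.22, edgeR adjusted p = 0.00352), and was 0.30 with library size as the only scaling. Of the 50-base stretches of *Sord*, 31.3% also occurred in the processed pseudogene *Gm6652*, which had 96 to 201 counts a library, so that the counts of *Sord* are less certain than those of the other genes.

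**Figure D3:**
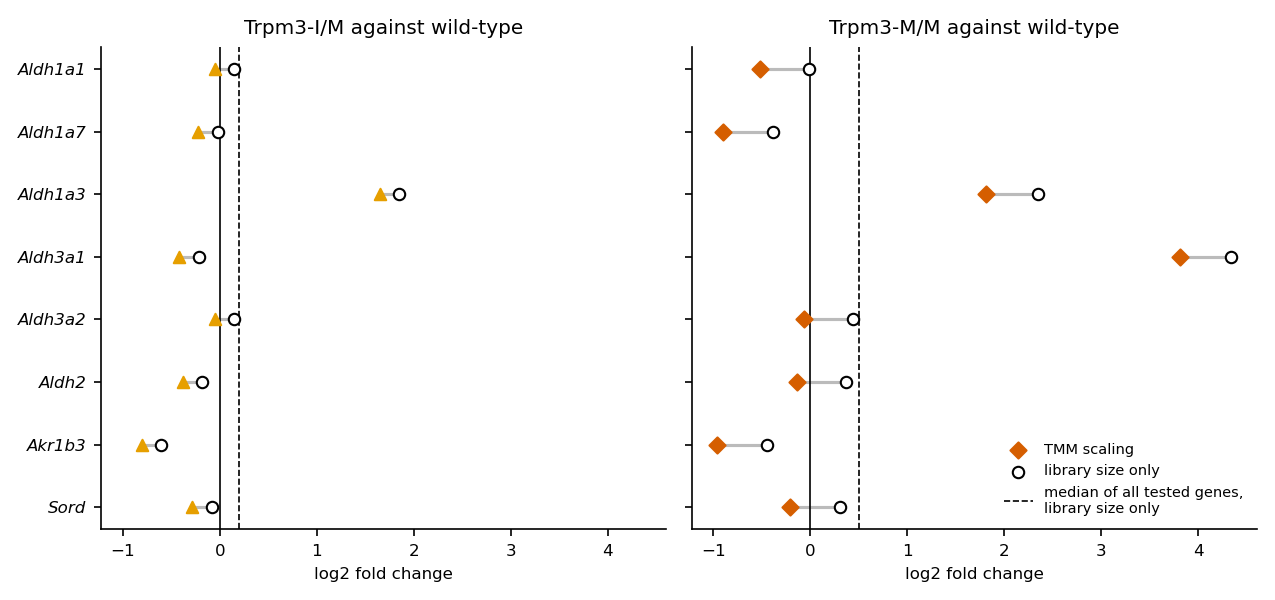
Log2 fold change of each gene against wild-type in I/M (left) and M/M lenses (right) with TMM scaling (filled) and with library size only (open), where the dashed line is the median of all genes tested with library size only (0.20 and 0.50). *Akr1b3*, *Aldh1a7*, *Aldh1a3* and *Aldh3a1* kept their side of 0 in M/M lenses under both, whereas *Aldh2*, *Aldh3a2* and *Sord* changed sign and *Aldh1a1* lay at -0.01 with library size only.

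The ratio of the sorbitol-making to the sorbitol-using gene does not depend on scaling. There were 0.846, 0.782 and 0.950 counts of *Akr1b3* per count of *Sord* in wild-type libraries and 0.763, 0.868 and 0.845 in KO. I/M libraries had 0.628, 0.641 and 0.535 and M/M libraries 0.436, 0.524 and 0.593. All 6 mutant libraries lay below all 6 wild-type and KO libraries, and the mutants overlapped each other. The mean fell from 0.859 ± 0.0844 in wild-type to 0.601 ± 0.0577 in I/M and 0.518 ± 0.0784 in M/M lenses. For each, the two-sided exact permutation test gave p = 0.1, the smallest that 3 libraries against 3 allow (adjusted p = 0.2 over the 16 tests).

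**Figure D4:**
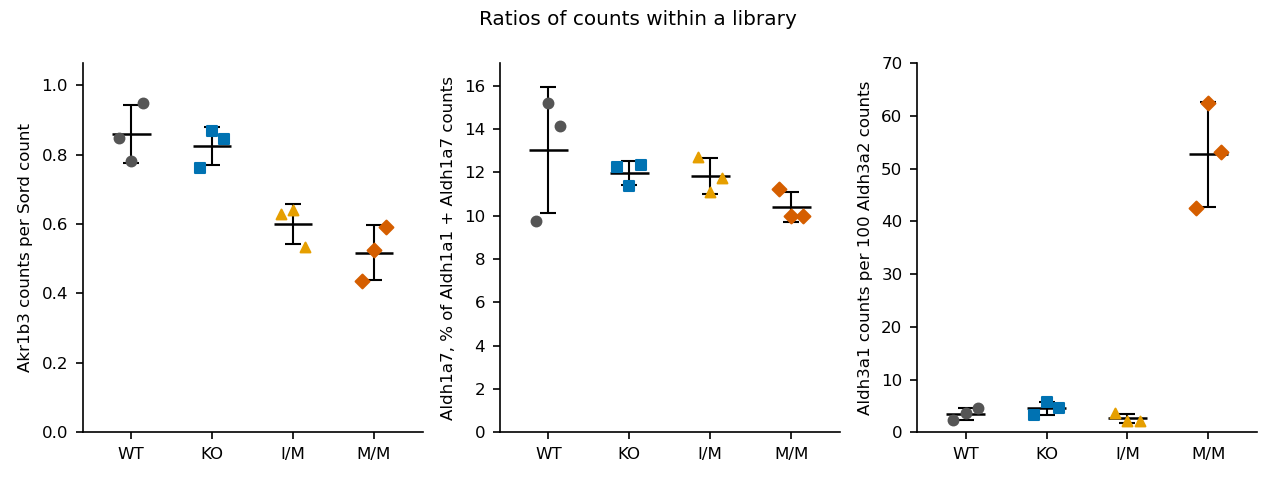
Ratios of counts within each library (vertical axes, from 0) by genotype, with the mean and SD in black: *Akr1b3* per count of *Sord* (left), the share of *Aldh1a7* in the pair with *Aldh1a1* (middle) and *Aldh3a1* per 100 counts of *Aldh3a2* (right). The *Akr1b3* to *Sord* ratio was at most 0.641 in mutant libraries and at least 0.763 in the others. The wild-type range of the *Aldh1a7* share enclosed those of the other genotypes only through wild-type replicate 1 at 9.76%, the lowest of all libraries.

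Genes that feed and drain these enzymes were counted from lists of the related pathways. Of 11 genes of hexose entry and fructose use, 6 were tested, and 2 rose and 2 fell in M/M lenses (median log2 fold change -0.06). *Hk1*, the hexokinase that commits glucose to glycolysis, was 13.2 to 14.8 CPM in wild-type, 24.6 to 25.9 in I/M and 48.5 to 49.4 CPM in M/M lenses, and rose by 0.83 and 1.78 on the log2 scale (edgeR adjusted p = 2.68e-07 and 3.83e-11). The transporter gene *Slc2a8* rose by 0.86 and 1.22 (edgeR adjusted p = 7.41e-06 and 5.35e-08). Of the 6, 2 rose and 1 fell in I/M and 0 passed in KO lenses (edgeR; 1 at an unadjusted p under 0.05, and 0 by DESeq2). The shares among all genes were those given above for each comparison.

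Of 14 genes listed under osmolyte accumulation, 11 were tested. The list takes in osmolyte uptake and osmotic response and also holds water channel, heat shock and *Lrrc8* genes. Its medians are therefore not those of solute uptake alone. *Hspa1b* and *Lrrc8b* reached the filter only through the M/M libraries, where they are high. Of the other 9, 4 rose and 1 fell in M/M lenses (median log2 fold change 0.39, against -0.0042 for all genes tested) and 3 rose and 2 fell in I/M (median 0.14). With both included, 6 of 11 rose in M/M lenses and the median was 0.60, and in I/M 4 rose and 2 fell. Among all genes tested, 62.7% passed in M/M, 32.6% in I/M and 4.36% in KO lenses. In KO lenses 0 of 11 passed (edgeR; 1 at an unadjusted p under 0.05, and 0 by DESeq2). The taurine transporter gene *Slc6a6* went from 48.2 to 55.4 CPM in wild-type to 67.7 to 78.0 in I/M and 140 to 168 CPM in M/M lenses, log2 fold changes of 0.47 and 1.57 (edgeR adjusted p = 3.06e-04 and 1.17e-09). The water channel gene *Aqp1* was at 1.61 and the inducible heat shock gene *Hspa1b* at 3.72 in M/M lenses (edgeR adjusted p = 3.89e-07 and 2.03e-09). *Hspa1b* has a near-identical copy, *Hspa1a*, with which reads could have been split. *Nfat5*, the transcription factor of the osmotic response, was at -0.27 (edgeR adjusted p = 0.116). *Slc5a3*, the myo-inositol transporter gene, was at 0.28 (edgeR adjusted p = 0.0747). Neither passed, and both were named after their values were seen.

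The retinoid list holds the genes around *Aldh1a1* and *Aldh1a3*, and 13 of its 24 genes were tested. *Rdh10*, *Dhrs3*, *Rarg* and *Rxrg* reached the filter only through the M/M libraries. Of the other 9, 3 rose and 4 fell in M/M lenses (median log2 fold change 0.08), 0 rose and 3 fell in I/M (-0.08) and 1 rose and 1 fell in KO (-0.05). With all 13, 6 rose and 4 fell in M/M (0.13) and 1 rose and 3 fell in I/M lenses (-0.07). The shares of all genes tested that passed were 62.7% in M/M, 32.6% in I/M and 4.36% in KO lenses. The retinol dehydrogenase gene *Rdh10*, whose product feeds retinaldehyde to ALDH1A enzymes, rose by 1.36 in M/M lenses (2.00 to 2.69 CPM in wild-type, 5.66 to 6.86 CPM in M/M), and *Dhrs3*, whose product reduces retinaldehyde back to retinol, rose by 1.82 (edgeR adjusted p = 9.56e-07 and 3.57e-08). *Stra6*, the retinol uptake receptor, and *Bco1*, which cleaves carotene to retinaldehyde, were at -1.14 and -1.32 (edgeR adjusted p = 1.74e-07 and 9.12e-07).

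Other aldehyde-handling enzymes were counted in the same way, where 62.7% of all genes tested passed in M/M, 32.6% in I/M and 4.36% in KO lenses. Of 15 other aldehyde dehydrogenase genes 6 were tested, and 1 rose and 2 fell in M/M lenses (median log2 fold change -0.10), 1 rose and 3 fell in I/M, and 0 passed in KO (edgeR; 2 at an unadjusted p under 0.05, and 0 by DESeq2). DESeq2 called 1 in M/M lenses. With the lower filter 8 of 12 passed in M/M and 2 of 12 in KO lenses (edgeR, 60.7% and 4.06% of all genes). *Aldh7a1*, antiquitin, was at -0.27 in M/M lenses (edgeR adjusted p = 8.47e-05, named after its value was seen). Of 22 carbonyl reductase and alcohol dehydrogenase genes 6 were tested, of which 5 fell and none rose in M/M lenses (median -0.27), 2 fell in I/M and 0 passed in KO (edgeR; 2 at an unadjusted p under 0.05, and 0 by DESeq2). *Akr1a1*, aldehyde reductase, was at -0.26 in M/M lenses (243 to 253 CPM in wild-type and 203 to 213 CPM in M/M, edgeR adjusted p = 6.33e-05, named after its value was seen).

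Of 11 genes listed under aldehyde damage defence, all were tested. The list holds genes that remove lipid peroxides and glyoxals, and also superoxide dismutase and catalase genes. In M/M lenses 2 rose and 5 fell (median log2 fold change -0.06), in I/M lenses 1 fell, and in KO lenses 2 fell. For this list and the next, 62.7% of all genes tested passed in M/M, 32.6% in I/M and 4.36% in KO lenses. *Gsta4*, a glutathione transferase for hydroxynonenal, was at -1.72 in KO and -0.92 in M/M lenses (edgeR adjusted p = 0.00390 and 0.00935, named after its values were seen). The list of NRF2 and AHR, regulators also known for *Aldh3a1*, holds 16 genes. They take in genes of the regulators and their partners and genes that respond to them, and 11 were tested. In M/M lenses 3 rose and 4 fell (median 0.08), in I/M 1 rose and 2 fell, and in KO 1 fell. The median is thus not that of the responding genes alone. *Gclm*, a subunit of the enzyme that starts glutathione synthesis, rose by 1.06 in M/M lenses, while *Hmox1*, heme oxygenase, was at -1.02 (edgeR adjusted p = 2.12e-08 and 3.68e-05).

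**Figure D5:**
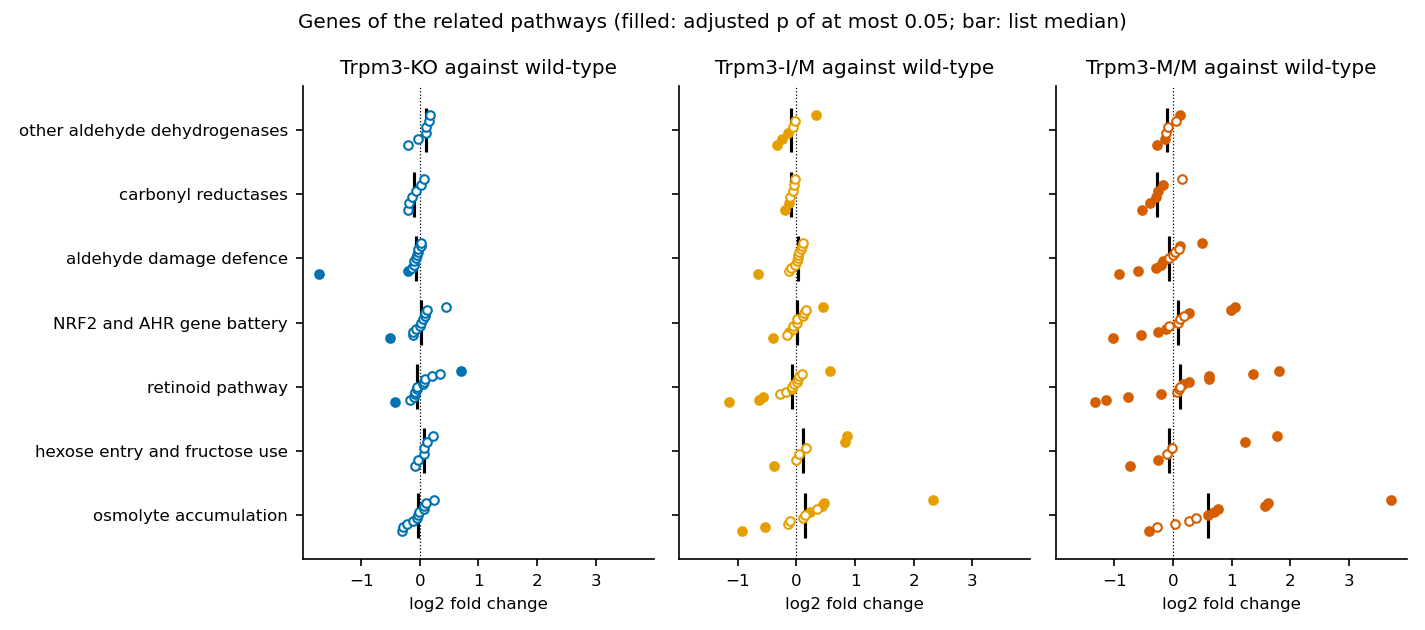
Log2 fold change against wild-type of the tested genes of 7 related pathway lists (horizontal axis) in KO, I/M and M/M lenses, 1 point a gene, filled where the adjusted p was at most 0.05, with the list median as a bar. In M/M lenses the median of the osmolyte list lay at 0.60, or 0.39 without the 2 genes that reached the filter only there, and the other 6 medians lay between -0.27 and 0.13.

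Across the 12 libraries the genes most like each member in pattern were named by Pearson's r of log2 CPM, which is given as a description since the libraries share their genotypes. For *Akr1b3* they were *Spon1* (r = 0.988), *Igsf3* and *Myo6* (both 0.984). For *Aldh1a1* they were *Serpind1* (0.989), *Islr* (0.983) and *Ranbp1* (0.979), and for *Aldh1a7* they were *Tomm7* (0.958), *Gm10036* (0.951) and *Slc35b2* (0.945). *Aldh2* was most like *1700025G04Rik* (0.954), *Gadd45a* (0.936) and *Wtap* (0.931), *Sord* most like *Gna12* (0.962), *Rnf10* (0.900) and *Prcc* (0.878), and *Aldh3a2* most like *Mms19* (0.877), *Mcu* (0.785) and *Hira* (0.782). The genes below the filter, for which no neighbours had been planned, were close to *Atp1b1*, *Krt18* and *Thbd* (*Aldh1a3*, r of 0.993, 0.991 and 0.991) and to *Fn1*, *Tpm4* and *Nab1* (*Aldh3a1*, r of 0.990, 0.989 and 0.987). Among the 8 genes themselves, r was 0.88 between *Aldh1a1* and *Aldh1a7*, -0.96 between *Aldh1a3* and *Akr1b3* and -0.95 between *Aldh1a1* and *Aldh3a1*.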

How the data were processed

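RNA was extracted from P7 lenses, and libraries were made from poly(A) RNA with a kit that does not keep strand. The authors aligned and quantified the reads with DRAGEN on the mm10 (GRCm38) assembly and deposited estimated counts per gene without normalization, of which 88.4% were whole within 1e-09. A second deposited table holds the same counts for the genes passing the authors' filter, their CPM (counts scaled to a common library total), the authors' log2 fold changes and mean log2 CPM, and the authors' p-values and FDR from edgeR, which were not used. Of identifiers with repeated rows (168, all with equal values), 1 row was kept. Counts were rounded and fitted with the edgeR 4.0.16 quasi-likelihood test (R 4.3.3), TMM scaling and Benjamini-Hochberg adjustment over all genes tested, with all 12 libraries in 1 fit and genotype as the factor. Genes needed a CPM of at least 5 in at least 3 libraries. The filter of CPM of at least 1 for the genes below it was paired with each alternative after the data were seen. List counts without genes that reach the filter through 1 genotype alone were likewise added after the data were seen. Library totals of 56162182 to 82090262 counts limit precision mainly for *Aldh3a1*. Within-library ratios were compared by two-sided exact permutation tests. Alternatives were DESeq2 1.42.0, other scalings, other filters, a replicate block, a fit of only the genotypes compared and leaving out each library. The fit was tested on simulated data. The genes and lists were chosen with earlier results of these data known. Pathway genes were named where FC was at least 2 with an adjusted p of at most 0.05 in a mutant, up to 5 a list by size in M/M, and 3 genes of like pattern (log2 CPM with a prior count of 2) for each gene that passed the filter, with *Trpm3* as the targeted gene. Not every gene that met the rule is reported here. Named beyond it, and chosen after the values were seen, were *Lrrc8b*, *Rarg*, *Rxrg*, *Krt5*, *Krt14*, *Krt15*, *Nfat5*, *Slc5a3*, *Aldh7a1*, *Akr1a1*, *Gsta4*, those like *Aldh1a3* and *Aldh3a1* (pseudocount 0.1 CPM) and all genes of the closing observations. Loci and exons come from the GENCODE annotation of GRCm38, to which 55227 identifiers matched, and promoters from RefSeq, which held 4 of the 8 genes.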

Additional observations from a re-analysis of the deposited data

Results flagged for a closer look

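For 4 genes the change from wild-type differed between the homozygous and heterozygous mutants, as tested by M/M against I/M in edgeR. *Aldh1a1*, *Aldh1a7* and *Aldh2* passed with the filter of the study, as did 51.3% of all genes. *Aldh3a1* came from the lower filter, which it reached only through the M/M libraries, and where 48.8% of all genes passed. *Akr1b3* also passed with the lower filter (-0.18, edgeR adjusted p = 0.0439). *Aldh3a1* differed by 4.23 on the log2 scale (edgeR adjusted p = 1.94e-08) and *Aldh2* by 0.24 (edgeR adjusted p = 0.00103), both higher in M/M. *Aldh1a7* differed by -0.68 (edgeR adjusted p = 0.00147) and *Aldh1a1* by -0.46 (edgeR adjusted p = 1.60e-06), both lower in M/M. In each of the 4, all 3 M/M libraries lay on the same side of all 3 I/M libraries, a description of genes picked by that same test.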

How the results depend on the processing

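The falls of *Akr1b3* and the rises of *Aldh1a3* in both mutants, the fall of *Aldh1a7* and the rise of *Aldh3a1* in M/M, and the fall of *Aldh2* in I/M kept direction and call under every alternative that gave a value. Leaving out a M/M library dropped *Aldh3a1* below the lower filter. Scaling by library size only moved most values. With it the median of all genes tested lay at 0.20 in I/M and 0.50 in M/M, with 92.9% and 93.7% of calls higher. Under it signs turned for *Aldh1a1* (0.15) and *Aldh3a2* (0.15) in I/M, *Aldh2* (0.37), *Aldh3a2* (0.44) and *Sord* (0.30) in M/M, *Akr1b3* (0.15) and *Aldh3a2* (0.29) in M/M against I/M, *Slc6a6* in KO (0.032) and *Rdh10* in I/M (0.024), and 5 of the 6 genes were called in M/M against I/M. With upper-quartile scaling *Aldh1a3* in KO was -0.00297. DESeq2 called 1 gene in KO. With the lower filter, which tests 8 genes, 7 were called in M/M (2 at 2-fold), 1 at 2-fold in I/M, 5 in M/M against I/M and 5 against KO. With every gene of at least 1 count, 2 were called in KO, 5 in I/M (1 at 2-fold), 2 at 2-fold in M/M, 5 against I/M, 5 against KO and 4 in I/M against KO. The cause of these moves, beyond the larger number of genes tested, was not tested. For library size only and for every gene of at least 1 count, no share over all genes is given. The numbers called there can thus not be set against a general rate. Leaving out each library gave 0 to 1 genes called in KO and 0 to 1 at 2-fold in M/M, in both cases *Aldh1a7* without wild-type replicate 1. The same gave ranges that crossed 0 in KO for *Aldh1a3* (-0.038 to 0.083), *Aldh3a2* (-0.037 to 0.077), *Slc6a6* (-0.064 to 0.035) and *Rdh10* (-0.027 to 0.18), in I/M for *Aldh3a2* (-0.11 to 0.0030) and *Aqp1* (-0.065 to 0.24), and in M/M against I/M for *Aldh3a2* (-0.047 to 0.023) and *Sord* (-0.0038 to 0.21). Replicate numbers did not pair the libraries (r of deviations from -0.264 to 0.149 over 18 same-numbered pairs, 2 of them over 0.1), and a replicate block changed no call of the 8 genes (*Akr1b3* in M/M was -0.96, edgeR adjusted p = 5.58e-07).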

Other observations

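Below the filter of the study, some less abundant aldehyde-handling genes moved in the fit with the lower filter. *Aldh1l1*, a folate enzyme, was at 1.52 on the log2 scale in KO against wild-type lenses (edgeR adjusted p = 5.69e-06), and *Aldh1a2*, the retinaldehyde dehydrogenase of the embryo, at -1.06 (edgeR adjusted p = 0.0376). In M/M against wild-type lenses *Aldh3b1* was at 1.58 and the mitochondrial folate enzyme *Aldh1l2* at 1.07 (edgeR adjusted p = 2.15e-05 and 1.94e-04). *Ptgr1*, an alkenal reductase, was at 1.88 in M/M (edgeR adjusted p = 1.31e-07). These genes were chosen after their values were seen.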
